A study of Homo sapiens and Mus musculus with 19 samples.

Results

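The genes described here are the very long protein-coding genes of K562 cells, a human chronic myeloid leukaemia line. A gene was taken when GENCODE annotates it as protein-coding on an autosome with a span, first to last annotated base, of 300 kb or more, and when at least 10 reads were counted in 3 or more of the K562 libraries. 773 genes met both rules, of 786 genes of that span, of 58721 genes in each count table and of 26023 genes tested, and all 773 passed the filter on low counts. Chromatin-associated RNA (caRNA), the RNA retained with the chromatin pellet of lysed nuclei, was sequenced after ribosomal RNA depletion. The cells were wild type for TET2 (TET2WT) or TET2 knockout (TET2KO), and each genotype carried shControl or shMBD6, an shRNA directed at MBD6. There were 3 libraries in each of the 4 groups, called WT control, WT shMBD6, KO control and KO shMBD6 here, and puromycin was in the medium of all. TET2 is a dioxygenase that oxidises 5-methylcytosine, and MBD6 is a methyl-binding-domain protein. The shRNAs were delivered by lentivirus, and whether the K562 knockout line was 1 clone is not given in the sources used here.

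A very long gene is nearly all intron, and RNA polymerase II needs hours to traverse it. The nascent transcript stays on chromatin for that time, so caRNA from such a gene is largely intronic. Many of the longest human genes encode adhesion and synaptic proteins of neurons and are silent in blood cells, and several coincide with common fragile sites, where chromosomes break under replication stress. The median span of the very long genes was 447 kb, with a range of 300.1 to 2474 kb, and a median of 1.99% of the span was exonic. The 14855 shorter protein-coding autosomal genes tested had a median span of 33.3 kb, 15.1% exonic. Median GC content was 39.1% in the very long genes and 45.2% in the shorter ones. The longest gene was RBFOX1, a neuronal splicing regulator (GRCh38 chromosome 16, 5239802 to 7713340, plus strand).

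The promoter windows of 4 genes are shown because these genes had the largest rises and falls between TET2 genotypes. The windows are from RefSeq (GRCh38.p14), run from 250 bases before to 50 bases after the annotated start, and are written 5′ to 3′ on the gene's strand with each CG in capitals. DACH1 (chr13:71867155-71867454, minus strand) and ARHGAP15 (chr2:143129169-143129468, plus strand) were near the floor in WT control. ZNF804A (chr2:184598279-184598578, plus strand) and PAK5 (chr20:9839027-9839326, minus strand) were near the floor in KO control.
DACH1: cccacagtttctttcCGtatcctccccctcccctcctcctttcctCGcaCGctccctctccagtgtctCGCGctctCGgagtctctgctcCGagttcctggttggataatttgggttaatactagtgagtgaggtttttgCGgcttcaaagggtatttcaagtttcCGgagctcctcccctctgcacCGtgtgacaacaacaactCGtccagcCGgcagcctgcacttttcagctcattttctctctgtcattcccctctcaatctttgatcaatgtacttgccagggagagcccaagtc
ARHGAP15: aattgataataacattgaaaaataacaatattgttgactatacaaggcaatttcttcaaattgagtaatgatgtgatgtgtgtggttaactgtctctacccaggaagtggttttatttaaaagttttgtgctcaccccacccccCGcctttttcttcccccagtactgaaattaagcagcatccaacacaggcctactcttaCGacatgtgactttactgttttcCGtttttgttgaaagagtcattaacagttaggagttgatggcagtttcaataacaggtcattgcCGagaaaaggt
ZNF804A: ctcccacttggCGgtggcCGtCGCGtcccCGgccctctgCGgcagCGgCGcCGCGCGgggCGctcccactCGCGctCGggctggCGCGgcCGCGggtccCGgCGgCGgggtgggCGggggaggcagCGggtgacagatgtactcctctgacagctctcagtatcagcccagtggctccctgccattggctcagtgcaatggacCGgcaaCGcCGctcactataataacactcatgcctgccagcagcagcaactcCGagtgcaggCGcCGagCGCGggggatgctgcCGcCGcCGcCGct
PAK5: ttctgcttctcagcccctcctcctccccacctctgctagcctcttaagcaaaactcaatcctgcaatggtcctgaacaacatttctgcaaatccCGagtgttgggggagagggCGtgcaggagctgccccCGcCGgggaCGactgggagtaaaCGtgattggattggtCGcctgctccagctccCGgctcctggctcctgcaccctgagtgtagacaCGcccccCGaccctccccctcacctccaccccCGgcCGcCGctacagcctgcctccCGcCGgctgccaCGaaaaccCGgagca

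The ZNF804A window held 36 CG, the PAK5 window 17, the DACH1 window 12 and the ARHGAP15 window 4. The median over 27305 RefSeq promoters was 14 CG. Windows were found by symbol for 615 of the 773 very long genes, with a median of 22 CG. The motif GGGCGG, searched on both strands, was in 56.3% of these windows and 44.6% of all promoters, and of the 4 windows shown it was in that of ZNF804A. TATAAA was in 6.83% of the very long genes' windows and 12% of all promoters, AGATAA in 7.80% and 10.5%, and CCGGAAGT in 1.46% and 4.44%.

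The level of each gene was its CPM (counts scaled by library size) per kb of gene span, as the mean over the 12 libraries. Below 0.01 CPM per kb lay 312 genes, called low here. Between 0.01 and 0.1 lay 196 genes, and at 0.1 or more lay 265 genes (34.3%), called transcribed. These limits were set after the levels were seen. Transcribed genes carried 96.6% of the CPM of the very long genes, and low genes 0.698%, with a median of 149 counts per library. Of the shorter genes 65.5% reached 0.1 CPM per kb. As a background, 415 olfactory receptor genes had a mean of 0.0809 CPM per kb in WT control, 0.0918 in WT shMBD6, 0.117 in KO control and 0.0886 in KO shMBD6, and a median of 0 in every library. The limit of 0.1 for transcribed genes thus lies close to the background mean, and below it in KO control. Against the background mean over the 12 libraries, 269 very long genes lay at or above it and 101 reached 10 times it. CG in the promoter windows had a median of 28 in transcribed and 19 in low genes.

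**Figure D1:**
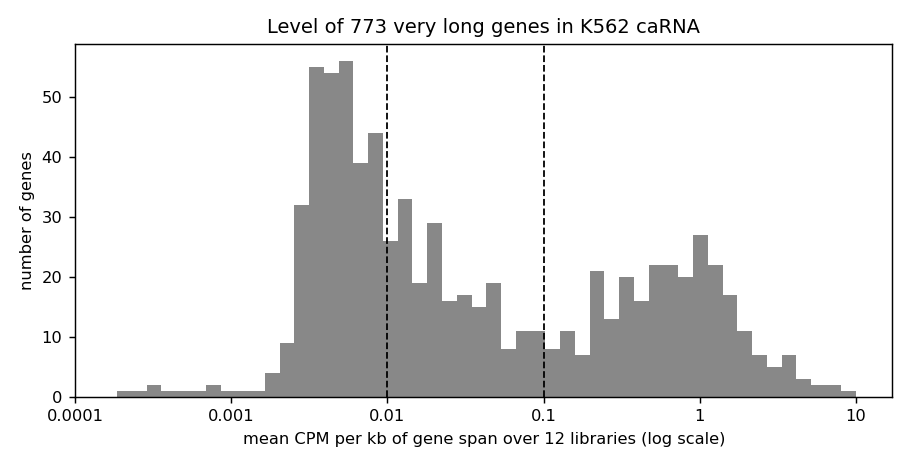
Number of very long genes (y axis) by mean CPM per kb of gene span over 12 libraries (x axis, log scale). Dashed lines mark 0.01 and 0.1 CPM per kb, with 312 genes below the first and 265 at or above the second.

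The gene with the highest level per kb was CPED1, at 9.94 CPM per kb. It was at 3194, 3267 and 3252 CPM in WT control and 2750.4, 2729 and 2766 in KO shMBD6, and those groups did not overlap. PRKCB, a protein kinase C, followed at 7.73 CPM per kb, then NBAS, a factor of Golgi-to-ER transport, at 6.71, and STEAP1B, SND1, ARL15, ZFAND3, FNDC3B, CDC42BPA and GSE1 lay between 3.58 and 5.99. Of the 10 longest genes CNTNAP2 and CSMD1 were transcribed, at 0.158 and 0.113 CPM per kb. The other 8, RBFOX1, PTPRD, DLG2, MACROD2, EYS, LRP1B, CTNNA3 and PCDH15, lay between 0.00227 for PTPRD, a receptor phosphatase, and 0.0333 for DLG2, a synaptic scaffold.

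Gene counts per library ran from 52158403 to 102070223. Of 10 erythroid markers GATA1, TAL1, NFE2 and TFRC were above 30 CPM in every library, while HBG2 and HBE1 were listed at 0 in every library. Genes that overlap a same-strand gene are undercounted here, so a listed 0 does not show that a gene is silent. The summed level of the 10 markers, with those at 0, was 889 to 920.2 CPM in WT control and 589.8 to 609.6 in WT shMBD6. It was 521 to 529 in KO control and 708 to 722 in KO shMBD6. Lymphoid, monocyte and granulocyte markers summed to at most 3.42 CPM, epithelial markers to at most 17.0 and neural markers, mostly GAD1, to 19.6 to 110.3. The shRNA target followed its label in TET2WT and not in TET2KO. MBD6 was at 43.3, 42.7 and 38.6 CPM in WT control and 31.0, 25.7 and 27.2 in WT shMBD6 (log2 change -0.57, SE 0.08, adjusted p = 1.83e-07 by edgeR). It was at 30.6, 30.8 and 29.4 CPM in the libraries labelled KO control and 30.6, 38.3 and 34.2 in those labelled KO shMBD6, so that the ranges overlapped (log2 change 0.19, SE 0.08, adjusted p = 0.0574 by edgeR), and the higher level was called under 8 of the alternatives. All KO group names below are labels in this sense. TET2 was at 118 to 124 CPM in WT control and 127 to 131 in KO control, so that every KO control library lay above every WT control library (log2 change 0.09, adjusted p = 0.0735 by edgeR, not called). The counts show no loss of the TET2 transcript, and they test no deletion that leaves it in place.

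Very long genes took 12.7% ± 0.114 (SD, n = 3) of all gene counts in WT control, 13.6% ± 0.104 in WT shMBD6, 14.03% ± 0.0535 in KO control and 12.3% ± 0.0629 in KO shMBD6. No library of one group overlapped another group. Per the paper's methods an ERCC RNA spike-in was added to the caRNA and entered the authors' scaling. The tables held no spike-in lines, so that every change below is relative to the other genes, and fewer expressing cells and less RNA per cell cannot be told apart.

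The first comparison, KO control with WT control, asks what loss of TET2 does to RNA on chromatin. Transcribed very long genes were mostly higher in TET2KO, 193 of 265 against 45 lower, with a median log2 change of 0.32. They counted 151 higher and 88 lower with total gene counts as library size. Of shorter transcribed genes 31.2% were higher and 33.7% lower. Low genes were mostly lower, with 36 higher, 180 lower and a median of -0.87, and shorter low genes had a median of -1.06. Both classes were set on the mean over the 12 libraries, the compared groups included. Over all 773 genes 358 were higher (46.3%) and 258 lower (33.4%) by edgeR at an adjusted p under 0.05, beside 23.5% higher and 22.3% lower among all genes tested. The median over the 773 genes was 0.10, or -0.0788 with total gene counts as library size, and over all genes -0.05. Transcribed very long genes on chromosomes 8 and 15 had medians of 0.64 and 0.96, where all genes had 0.23 and 0.53. Without both chromosomes the transcribed median was 0.27, and that of shorter transcribed genes -0.06.

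DACH1, a transcriptional cofactor of development, had the largest rise. It was at 0.789, 1.01 and 1.44 CPM in WT control and 329, 334 and 324 in KO control (log2 change 8.22, SE 0.11, adjusted p = 2.19e-20 by edgeR). ARHGAP15, a Rac GTPase-activating protein, was at 2.77, 4.45 and 3.14 CPM in WT control and 882, 914 and 901 in KO control, a log2 change of 8.0. Both were below 5 CPM in every WT control library and above 300 in every KO control library. ESR1, the gene of oestrogen receptor alpha, was at 1.98, 2.75 and 2.96 and 159.6, 156 and 171 CPM (log2 change 5.96). CPNE4, a calcium-dependent membrane-binding copine, was at 4.51, 6.25 and 5.36 and 166, 171 and 182 CPM (log2 change 4.99). ST6GALNAC3, a sialyltransferase, SYT1, the synaptic calcium sensor synaptotagmin 1, GLIS3, a zinc finger transcription factor, and ATP8B4, a phospholipid flippase, rose by 4.95, 4.90, 4.87 and 4.84 on the log2 scale.

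ZNF804A, a zinc finger gene, was at 69.8, 71.7 and 69.8 CPM in WT control and 0.357, 0.383 and 0.237 in KO control (log2 change -7.76, SE 0.09, adjusted p = 4.79e-35 by edgeR). PAK5, a p21-activated kinase of brain, was at 28.0, 27.6 and 25.5 and 0.131, 0.435 and 0.198 CPM (log2 change -6.82). The KO libraries of both genes were below 0.5 CPM. ROBO1, an axon guidance receptor, was at 109.5, 115 and 110.0 and 2.56, 1.76 and 3.02 CPM (log2 change -5.49). SOX5, a SOX family transcription factor, was at 228, 237 and 239 and 21.1, 19.7 and 20.4 CPM (log2 change -3.52). CSMD3, KCNT2, a sodium-activated potassium channel, PDE1A, a cyclic nucleotide phosphodiesterase, and ZNF385D had log2 changes of -5.69, -3.75, -2.69 and -2.46. In the shMBD6 libraries DACH1, ARHGAP15 and CPNE4 were again higher in TET2KO (log2 changes 4.81, 5.51 and 4.03) and ZNF804A, PAK5 and ROBO1 lower (-8.59, -7.31 and -6.58). SOX5, GLIS3 and ST6GALNAC3 had 0.00, 0.01 and 0.00 there and did not pass the test.

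**Figure D2:**
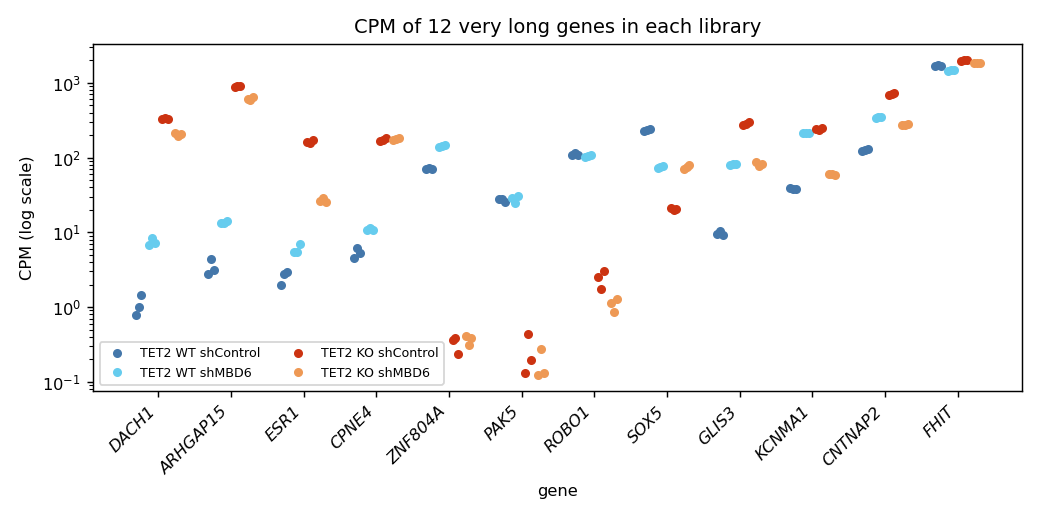
CPM (y axis, log scale) of 12 very long genes in each of the 12 libraries, 1 point a library and 1 colour a group. DACH1 lies at 0.789 to 1.44 CPM in WT control and 324 to 334 in KO control, ZNF804A has the opposite order, and SOX5 and GLIS3 overlap between the shMBD6 groups.

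The second comparison, WT shMBD6 with WT control, asks what MBD6 depletion does. Of all 773 genes 524 were higher (67.8%) and 117 lower (15.1%), beside 17.7% higher and 24.7% lower among all genes tested. The median log2 change was 0.73, and 0.10 over all genes. Among low genes 251 were higher and 1 lower, and 60 did not pass the test, with a median of 0.98, and shorter low genes had 1.10. Among middle genes 164 were higher, 10 lower and 22 did not pass. Among transcribed genes 109 were higher and 106 lower, with a median of 0.02. Shorter transcribed genes had -0.22, with 13.0% higher and 54.5% lower. The split of the transcribed very long genes moved with the scaling. It was 153 higher and 62 lower with DESeq2 size factors, 149 and 69 with total gene counts, and 177 and 41 with TMM on genes under 100 kb. Of the 101 genes at 10 times the olfactory receptor mean 27.7% were higher and 54.5% lower, with a median of -0.0827. The share of records outside annotated genes was 13.1% to 13.3% in WT control and 15.6% to 16.0% in WT shMBD6, and the median level of low genes 0.00419 to 0.00483 and 0.00825 to 0.00952 CPM per kb. In KO control the share was 15.0% and the low genes lay at 0.00239 to 0.00262. In KO shMBD6 the share was 15.0% to 15.2% and the low genes lay at 0.00157 to 0.00158. The part of reads outside genes in the result was not tested.

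GLIS3 was at 9.37, 10.5 and 9.24 CPM in WT control and 80.3, 83.1 and 82.0 in WT shMBD6 (log2 change 3.07, SE 0.05, adjusted p = 3.37e-30 by edgeR). KCNMA1, the pore subunit of the BK potassium channel, was at 38.6, 38.3 and 37.9 and 211, 216 and 211 CPM (log2 change 2.47). Neither gene overlapped between the groups. ST6GALNAC3, KLHL29, ZNF804B, PRKD1, a protein kinase D, and ANK2, an ankyrin that anchors membrane proteins, had log2 changes of 2.83, 2.57, 2.50, 2.32 and 2.10. The gene without a symbol ENSG00000285471 had the largest value, 3.62, but other genes on the same strand cover 58.7% of its span and its counts are uncertain. The largest falls were smaller. SOX5 was at 71.6, 75.4 and 77.4 CPM in WT shMBD6 (log2 change -1.65, SE 0.05, adjusted p = 2.46e-24 by edgeR). SLC25A21, a mitochondrial dicarboxylate carrier, was at 1456, 1472 and 1489 CPM in WT control and 713, 729.8 and 726 in WT shMBD6, and ZFPM2, a GATA cofactor, at 510.3, 526 and 529.7 and 263, 272 and 274. COL25A1, SOX6, C2orf88, CELF2, an RNA-binding splicing factor, and CFAP20DC had log2 changes of -1.36, -0.87, -0.84, -0.82 and -0.74.

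In TET2KO, libraries labelled shMBD6 were compared with those labelled shControl. Of the 773 genes 37 were higher (4.79%) and 506 lower (65.5%), beside 15.7% higher and 20.6% lower among all genes tested, and the median was -0.51 against -0.07. Transcribed genes counted 18 higher and 216 lower, or 42 and 188 with total gene counts, with a median of -0.32. Shorter transcribed genes had a median of 0.08, with 33.3% higher and 23.3% lower. Low genes counted 4 higher and 145 lower, and 163 of 312 did not pass the test. Middle genes counted 15 and 145. ESR1 was at 25.9, 28.5 and 25.6 CPM in KO shMBD6 (log2 change -2.61, SE 0.08, adjusted p = 8.23e-22 by edgeR). COL14A1, a fibril-associated collagen, FBXL7, a ubiquitin ligase subunit, ENSG00000285471, NAV3, SLCO3A1, RPH3A and ST6GALNAC3 had log2 changes of -2.91, -2.89, -2.69, -2.25, -2.21, -2.19 and -2.12. Fewer genes rose, and SOX5 did so most, to 69.7, 75.2 and 79.8 CPM (log2 change 1.88). MYO16, an unconventional myosin, was at 199, 201 and 203 CPM in KO control and 401, 392 and 416 in KO shMBD6, and RELN, the extracellular guidance protein reelin, at 163, 177 and 176 and 299, 319.7 and 339. ZFPM2, CD96, HMCN1, SOX6 and KALRN had log2 changes of 0.95, 0.85, 0.82, 0.65 and 0.63.

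Between genotypes under shMBD6, 147 genes were higher in TET2KO (19.0%) and 531 lower (68.7%), beside 30.1% and 28.5% among all genes tested, with a median of -0.92 against -0.03. Low genes were lower nearly throughout, 294 of 312, with a median of -2.49 and -2.80 in shorter low genes. Of shorter transcribed genes 59.8% were higher and 12.1% lower, with a median of 0.28. Transcribed very long genes counted 110 higher and 104 lower with a median of 0.00319. The counts were 84 higher and 148 lower with DESeq2 size factors, 80 and 153 with total gene counts and 72 and 161 with TMM on genes under 100 kb, with medians of -0.12, -0.15 and -0.18. PARD3B, a polarity protein, was at 1496, 1563 and 1554 CPM in WT shMBD6 and 349, 354 and 360.3 in KO shMBD6 (log2 change -2.12). The groups did not overlap. NTM had -3.89. Rises beyond those already named were CD96, PLCB4, a phospholipase C, SLC27A6 and TMEM108, at 3.31, 2.79, 2.61 and 2.47.

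The genotype by shRNA interaction, which is the shMBD6 effect in TET2KO minus that in TET2WT, was negative for 603 of the 773 genes (78.0%) and positive for 61 (7.89%), beside 25.5% and 23.9% among all genes tested. Its median was -1.22 over the very long genes and -0.19 over all genes. Among transcribed genes it was negative for 190 and positive for 50, and among shorter transcribed genes for 20.2% and 51.2%. The shMBD6 comparisons in both genotypes share no libraries. Of 466 genes called in both, 388 changed in opposite directions, 367 of them up in TET2WT and down in TET2KO. Neither this count nor the correlation below was made for shorter genes, so opposite change is not shown to be particular to very long genes. Transcribed genes under 10 kb also had medians of opposite sign, -0.36 in TET2WT and 0.23 in TET2KO. The direction in TET2KO follows the labels, and MBD6 counts showed no fall in libraries labelled KO shMBD6. With the shRNA labels of TET2KO exchanged these 388 genes would have changed in the same direction in both genotypes. The 68 genes called lower in both and the 10 called higher in both would then have changed in opposite directions. Whether labels were exchanged was not tested. Of 186 transcribed genes called in both, 115 changed in opposite directions and 68 fell in both. Pearson's r of both log2 changes was -0.50 across the 773 genes and -0.69 across the transcribed ones, given as a description, since genes share libraries. For CNTNAP2, a neurexin-family adhesion gene, the libraries lay at 123 to 129 CPM in WT control, 340.4 to 354 in WT shMBD6, 699 to 732 in KO control and 269 to 279 in KO shMBD6. KCNMA1 lay at 237 to 247 CPM in KO control and 58.3 to 60.6 in KO shMBD6. Both genes were thus lowest in WT control and highest in KO control, with no overlap.

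**Figure D3:**
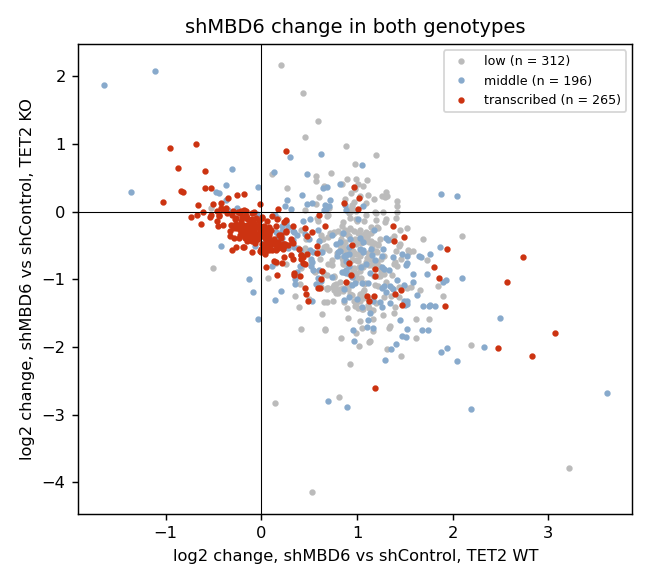
Log2 change with shMBD6 in TET2WT (x axis) and with libraries labelled shMBD6 in TET2KO (y axis) for the 773 very long genes, 1 point a gene, coloured by level. The lower right quadrant holds the 367 genes called up in TET2WT and down in TET2KO.

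Very long genes were then set beside shorter genes of like expression. In bands of 1 log2 CPM, the median log2 change of each band was averaged, weighted by the number of very long genes in it. Between genotypes in control libraries this mean of band medians was 0.34 for 236 transcribed very long genes and 0.09 for shorter genes. With shMBD6 the values were 0.05 and -0.14 in TET2WT, and -0.33 and -0.09 in TET2KO. Between genotypes in shMBD6 libraries they were 0.00 and 0.16, and for the interaction -0.43 and 0.05. The very long genes were above the shorter ones in 4 of 5 bands in the first of these comparisons, in 5 of 5 in the second and in 0 of 5 in each of the others. In bands of CPM per kb the very long genes differed from the shorter by 0.41, 0.26, -0.39, -0.26 and -0.65 in the same order. In GC tertiles of the very long genes the differences were 0.30, 0.22, -0.33, -0.26 and -0.57. In bands of exon length they were 0.29, 0.18, -0.32, -0.23 and -0.50. Over all levels the comparison could be made for 740 very long genes in CPM bands and 758 in bands of CPM per kb. In CPM bands they differed from shorter genes by -0.05, 0.66, -0.54, -1.31 and -1.19 in the same order. In bands of CPM per kb they differed by 0.43, 0.08, -0.26, 0.08 and -0.36. The sign of these weighted differences turned with the kind of band in the first and the fourth comparison. In the first, very long genes were above the shorter in 9 of 12 CPM bands and 12 of 12 bands of CPM per kb. In the fourth they were above in 0 of 12 and 3 of 12. These means of band medians are descriptions, and no test was run on them.

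The change went gradually with span. Among 9994 transcribed protein-coding autosomal genes the median between genotypes in control libraries was -0.22 under 10 kb, 0.02 at 30 to 100 kb, 0.25 at 200 to 300 kb, 0.29 at 300 to 500 kb and 0.39 at 500 kb or more. With total gene counts as library size the last of these classes had 0.21 and the first -0.40. With shMBD6 in TET2WT the medians ran from -0.36 under 10 kb to 0.04 at 500 kb or more, and in TET2KO from 0.23 to -0.36. Between genotypes in shMBD6 libraries they ran from 0.39 to -0.01, and in the interaction from 0.61 to -0.41. As a description across genes of the same libraries, Spearman's rank correlation of log2 change with span was 0.31, 0.28, -0.38, -0.20 and -0.36 in the order of the 5 comparisons, and 0.09, 0.11, -0.11, -0.03 and -0.12 within the 265 transcribed very long genes. In single libraries, genes of 500 kb or more deviated by 0.24 to 0.27 (log2) from their mean over 12 libraries in KO control and by -0.13 to -0.11 in WT control. Genes under 10 kb deviated by -0.07 to -0.03 and 0.13 to 0.20 in the same groups. The longest class was thus above the shortest in every KO control library and below it in every WT control library.

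**Figure D4:**
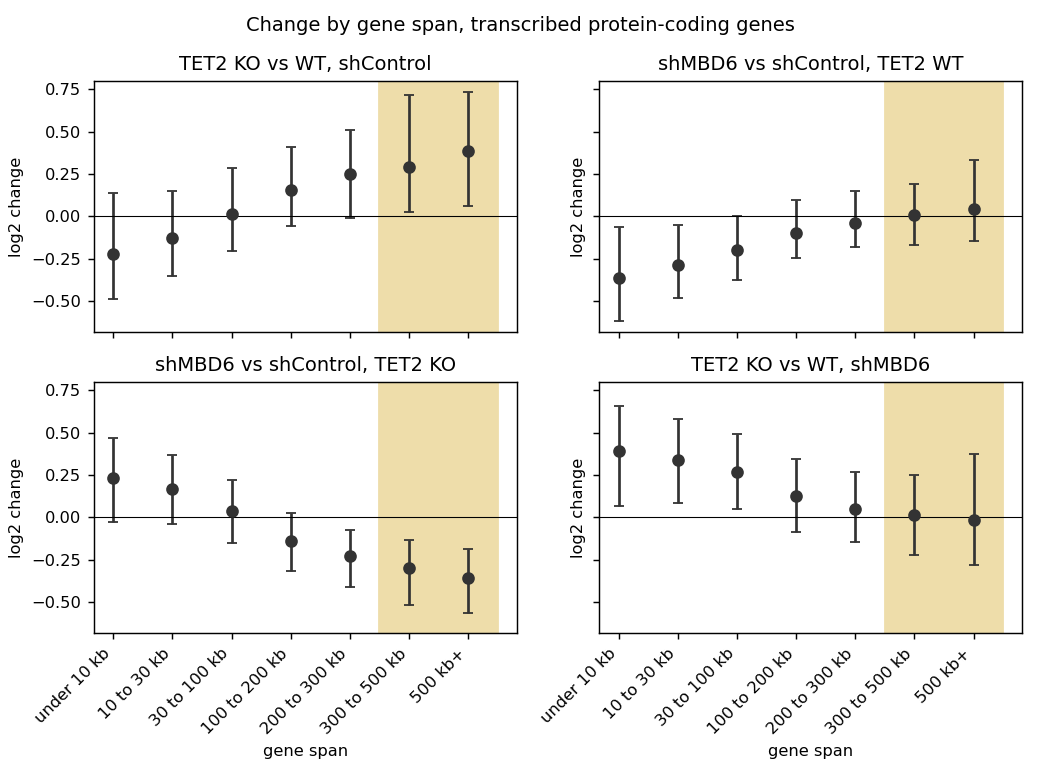
Median log2 change (points) and interquartile range over genes (bars) by gene span for transcribed protein-coding autosomal genes in 4 comparisons. Shading marks 300 kb or more, and medians go from -0.22 under 10 kb to 0.39 at 500 kb or more in the first panel and from 0.23 to -0.36 in the third.

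**Figure D5:**
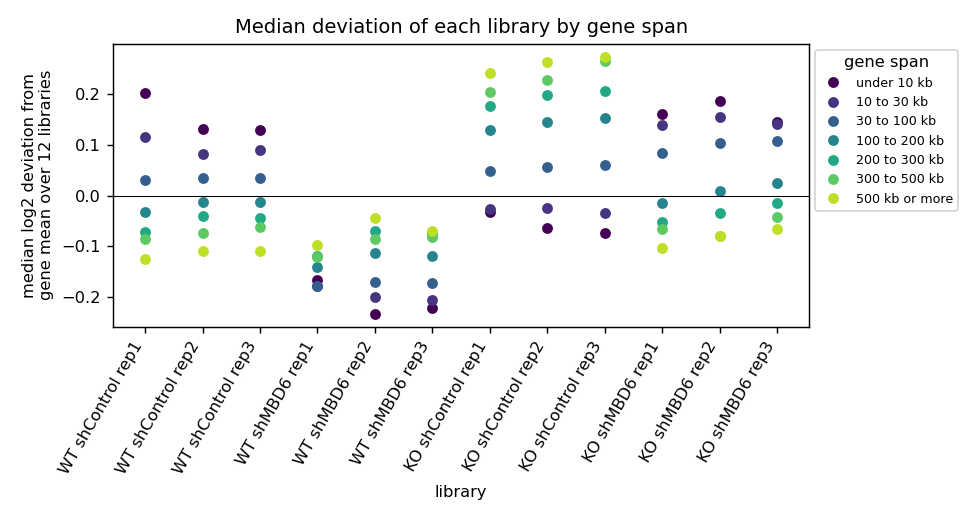
Median log2 deviation of each library from the gene mean over 12 libraries (y axis) for 7 classes of gene span, 1 point a class and library. In KO control the class of 500 kb or more is highest (0.24 to 0.27), and in WT control and KO shMBD6 the class under 10 kb is highest (0.13 to 0.20 and 0.15 to 0.19).

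Just above the 300 kb limit lay ENSG00000271949, SYT16, COBL, NOS1AP and SIPA1L3, at 0.00296, 0.00432, 0.00626, 0.232 and 0.335 CPM per kb, with log2 changes with shMBD6 in TET2WT of 1.69, 1.56, 1.29, -0.14 and 0.02. Just below it lay PCBP3, GHR, ARMH4, WDFY4 and KIAA1549L, at 0.0504, 0.00850, 0.0260, 0.0134 and 0.00545 CPM per kb, with 0.78, 0.67, 0.48, 1.13 and 1.37.

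Of 34 listed genes at common fragile sites 33 were among the very long genes, and 7 of these were transcribed. With shMBD6 in TET2WT 30 were higher and 2 lower, and in TET2KO 0 and 26, beside 67.8% higher in TET2WT and 65.5% lower in TET2KO among all very long genes. Of the 7 transcribed ones 4 were higher and 2 lower in TET2WT, and 0 and 6 in TET2KO. FHIT, a hydrolase at FRA3B, was at 1661, 1712 and 1700.0 CPM in WT control and 1972, 2013 and 2039.9 in KO control (log2 change 0.25, SE 0.02, adjusted p = 3.51e-12 by edgeR). WWOX, an oxidoreductase at FRA16D, was at 1140.5, 1143 and 1149 CPM in WT control and 831, 844 and 846 in WT shMBD6 (log2 change -0.45), and at 1133 to 1154 in KO control. IMMP2L, a mitochondrial inner membrane peptidase, was at 2392, 2466 and 2469.6 CPM in WT control and 3415, 3500.5 and 3532 in KO control (log2 change 0.51). FHIT and IMMP2L did not overlap between genotypes, and WWOX did. PARD3B rose with shMBD6 in TET2WT by 1.19 on the log2 scale and fell in TET2KO by 0.95. TBC1D5 rose by 0.08 between genotypes in control libraries. GRID1 had the largest rise of the fragile-site genes there (3.58) and THSD7A the largest fall (-2.72).

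By function, 118 very long genes were of neural adhesion and synapse, and 14 of these were transcribed. With shMBD6 in TET2WT 92 of the 118 were higher and 5 lower, and in TET2KO 2 and 76. Between genotypes 35 were higher and 58 lower in control libraries, and 14 and 99 in shMBD6 libraries. Among all very long genes 67.8% were higher with shMBD6 in TET2WT, 65.5% lower in TET2KO, and 33.4% and 68.7% lower between genotypes in control and shMBD6 libraries. Of the 14 transcribed ones 7 were higher and 5 lower with shMBD6 in TET2WT, 1 and 11 in TET2KO, and 9 and 4 between genotypes in control libraries, an order opposite to that of the whole list. ERC2, a presynaptic active zone protein, was at 10.4, 10.8 and 12.3 CPM in WT control and 40.7, 43.0 and 41.0 in WT shMBD6, and PCDH9, a protocadherin, at 1397, 1459.6 and 1455 and 1018, 1062 and 1049.6. The first rose and the second fell, with no overlap. Among all transcribed very long genes 41.1% were higher and 40.0% lower with shMBD6 in TET2WT. In TET2KO 81.5% of them were lower, and between genotypes in control libraries 72.8% were higher. Of 59 channel and transporter genes 47 were higher and 6 lower with shMBD6 in TET2WT, and of the 13 transcribed ones 7 and 5. ITPR1, an endoplasmic reticulum calcium channel, was at 663 to 674 CPM in WT control, 823 to 832 in KO control and 976 to 986 in KO shMBD6.

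Among all transcribed very long genes 72.8% were higher and 17.0% lower between genotypes in control libraries. With shMBD6 in TET2KO 6.79% of them were higher and 81.5% lower. Among very long genes of every level 46.3% were higher and 33.4% lower between genotypes in control libraries. The counts of the lists below stand beside these shares, and whether any list differs from them was not tested. Of 70 genes of transcription and chromatin 35 were transcribed. Of these 24 were higher and 10 lower between genotypes in control libraries, and 2 and 25 with shMBD6 in TET2KO. Of 41 transcribed genes of ubiquitin, trafficking, glycosylation and metabolism the counts were 30 and 8, then 4 and 33. THSD4 of that list, a thrombospondin-domain protein on chromosome 15, was at 22.1, 21.9 and 20.3 CPM in WT control and 551, 542 and 548 in KO control. Of 20 transcribed cytoskeletal, polarity and adhesion genes 18 were higher and 1 lower between genotypes, and UTRN, the dystrophin relative utrophin, was the exception (-0.43). Of 59 kinase, phosphatase and lipid signalling genes 30 were higher and 18 lower between genotypes, and of the 18 transcribed ones 14 and 3, among them PRKCE, a protein kinase C, at 25.7, 27.7 and 27.3 CPM in WT control and 191, 197 and 195 in KO control. Of 34 regulators of small GTPases 17 were higher and 8 lower between genotypes, and of the 17 transcribed ones 12 and 4. ELMO1, which activates Rac with DOCK proteins, was at 101, 109 and 104 and 357, 363 and 361 CPM, and ARHGAP42, a GTPase-activating protein, at 64.6, 68.7 and 63.9 and 19.4, 19.6 and 19.8. Of 17 RNA and DNA processing genes 8 were higher and 5 lower between genotypes, and of the 11 transcribed ones 6 and 2, with a median of 0.08, and with shMBD6 in TET2KO 10 were lower. STAU2, a double-stranded RNA-binding protein, rose by 0.84 between genotypes, and MGMT, the repair enzyme of O6-methylguanine, by 3.68, from 2.01 to 2.32 to 26.0 to 28.8 CPM. CELF2 was lower in every other group than in WT control except KO shMBD6, where its range of 687 to 706 CPM overlapped the 702 to 719 CPM of WT control.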

How the data were processed

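The authors deposited raw read counts per gene, 1 table per library. Per the labels reads were trimmed with Trimmomatic 0.39, aligned with HISAT2 2.2.1 to hg38 and counted with HTSeq 0.12.4, and the methods name GENCODE v29 and also featureCounts. The feature type and strand setting of the counting are unknown. Of 8756 genes inside a same-strand gene, 8340 had 0 counts in all libraries, so that overlapping genes are undercounted, and 527 of the very long genes share some span with a same-strand gene. Spans came from GENCODE v44 of the same build. The identifier version was the same for 17 of the 773 genes, so spans may differ from those counted, and 691 are also 300 kb or more in RefSeq.

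Counts were tested with edgeR 4.0.16 (R 4.3.3): filterByExpr by group, TMM, robust quasi-likelihood F test on 12 libraries in 4 groups, two-sided, Benjamini-Hochberg over 26023 genes, called at an adjusted p under 0.05. SEs derive from the F statistic. The script was tested for bias and false calls on simulated data with the same spread set for all genes. A first limit on the share of changed genes called was narrowly missed there and was dropped. DESeq2 1.42.0, other scalings and filters, each library left out, and other gene sets were alternatives. Lines naming no gene were left out; reads outside genes were 13.1% to 16.0% and multiply aligned reads 10.1% to 11.2% of records. Replicate pairs differed beyond sampling noise (chi-square per degree of freedom 5.30 to 14.9). Nothing in the labels states separate cultures, so that p-values measure the spread between these libraries. Named genes were the 10 longest, the 8 largest rises and falls per comparison among called, non-overlapping genes at 10 CPM or more (4 for the interaction, without overlap), the 10 highest per kb, 5 on each side of 300 kb, fragile-site genes, at most 4 examples a list, MBD6 and TET2. The genes and lists were chosen with earlier results of these data known. The 7 mouse libraries were not used here, and results of a few genes are not reported here.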

Additional observations from a re-analysis of the deposited data

Results flagged for a closer look

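The shMBD6 effect differed between TET2 genotypes for 8 very long genes, the 4 lowest and 4 highest called interactions among genes at 10 CPM or more in the highest group, each tested with edgeR as the interaction term over all genes. The interaction (log2) was -6.30 for ENSG00000285471 (SE 0.17, adjusted p = 9.05e-25), -5.10 for COL14A1 (SE 0.24, adjusted p = 3.29e-18), -4.95 for ST6GALNAC3 (SE 0.22, adjusted p = 3.36e-08), -4.86 for GLIS3 (SE 0.07, adjusted p = 6.88e-33). It was 3.52 for SOX5 (SE 0.07, adjusted p = 2.81e-29), 1.90 for ZFPM2 (SE 0.04, adjusted p = 1.5e-28), 1.69 for MYO16 (SE 0.04, adjusted p = 3.28e-25), 1.65 for COL25A1 (SE 0.15, adjusted p = 1.87e-11). MBD6 counts showed no fall in the TET2KO libraries labelled shMBD6, and whether this bears on these values was not tested.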

How the results depend on the processing

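Spans came from a later annotation release than the one the counts were made with. Without the counts of the spike-in that the methods describe, the total amount of RNA on chromatin is unknown here. Low genes had a median of 149 counts per library and are 312 of the 773, so that counts over all very long genes rest in large part on genes near the floor. With TMM on genes under 100 kb the median over all genes tested was -0.44 for the interaction, beside -0.19 as reported, and with total gene counts -0.23 for TET2 KO against WT in shControl, beside -0.05. The cause of the changes below was not tested, except that sets of fewer genes differ by construction. The transcribed, low and RefSeq sets, and the transcribed set under other scalings, were chosen after seeing the data. The background and the shares are values with no test. With DESeq2 size factors, the median log2 change was 0.84 for shMBD6 in TET2 WT, -1.03 for TET2 KO against WT in shMBD6 and -1.32 for the interaction, and the percent called lower was 9.06 for shMBD6 in TET2 WT. Among the transcribed genes the median was 0.13 for shMBD6 in TET2 WT, -0.12 for TET2 KO against WT in shMBD6 and -0.45 for the interaction, and the percent lower was 23.4 for shMBD6 in TET2 WT under that scaling. With total gene counts as library size, the median log2 change was -0.0788 for TET2 KO against WT in shControl, 0.83 for shMBD6 in TET2 WT, -0.39 for shMBD6 in TET2 KO and -1.06 for TET2 KO against WT in shMBD6, the percent called higher was 8.93 for shMBD6 in TET2 KO, and the percent called lower was 9.96 for shMBD6 in TET2 WT. Among the transcribed genes the median was 0.14 for TET2 KO against WT in shControl, 0.12 for shMBD6 in TET2 WT, -0.19 for shMBD6 in TET2 KO and -0.15 for TET2 KO against WT in shMBD6, the percent higher was 15.8 for shMBD6 in TET2 KO, and the percent lower was 33.2 for TET2 KO against WT in shControl and 26.0 for shMBD6 in TET2 WT under that scaling. With TMM on genes under 100 kb, the median log2 change was 0.16 for TET2 KO against WT in shControl, 0.92 for shMBD6 in TET2 WT, -0.58 for shMBD6 in TET2 KO, -1.10 for TET2 KO against WT in shMBD6 and -1.47 for the interaction, the percent called higher was 4.92 for the interaction, and the percent called lower was 6.08 for shMBD6 in TET2 WT. Among the transcribed genes the median was 0.38 for TET2 KO against WT in shControl, 0.21 for shMBD6 in TET2 WT, -0.39 for shMBD6 in TET2 KO, -0.18 for TET2 KO against WT in shMBD6 and -0.60 for the interaction, the percent higher was 66.8 for shMBD6 in TET2 WT, 27.2 for TET2 KO against WT in shMBD6 and 10.9 for the interaction, and the percent lower was 15.5 for shMBD6 in TET2 WT and 60.8 for TET2 KO against WT in shMBD6 under that scaling. With no filter on low counts, the median log2 change was 0.84 for shMBD6 in TET2 WT, -0.46 for shMBD6 in TET2 KO and -0.97 for TET2 KO against WT in shMBD6, and the percent called lower was 8.93 for shMBD6 in TET2 WT. With the DESeq2 Wald test, the median log2 change was 0.84 for shMBD6 in TET2 WT, -1.04 for TET2 KO against WT in shMBD6 and -1.32 for the interaction, and the percent called lower was 9.44 for shMBD6 in TET2 WT. For genes at 10 times the olfactory receptor level, the median log2 change was 0.21 for TET2 KO against WT in shControl, -0.0827 for shMBD6 in TET2 WT, -0.27 for shMBD6 in TET2 KO, 0.0137 for TET2 KO against WT in shMBD6 and -0.18 for the interaction, the percent called higher was 74.3 for TET2 KO against WT in shControl, 27.7 for shMBD6 in TET2 WT, 40.6 for TET2 KO against WT in shMBD6 and 24.8 for the interaction, and the percent called lower was 17.8 for TET2 KO against WT in shControl, 54.5 for shMBD6 in TET2 WT and 33.7 for TET2 KO against WT in shMBD6. From a span of 200 kb, the median log2 change was 0.58 for shMBD6 in TET2 WT, -0.43 for shMBD6 in TET2 KO, -0.43 for TET2 KO against WT in shMBD6 and -0.97 for the interaction. From a span of 500 kb, the median log2 change was 0.0269 for TET2 KO against WT in shControl, 0.82 for shMBD6 in TET2 WT, -0.56 for shMBD6 in TET2 KO, -1.26 for TET2 KO against WT in shMBD6 and -1.38 for the interaction. Without genes that overlap a same-strand gene, the median log2 change was 0.80 for shMBD6 in TET2 WT, -0.56 for shMBD6 in TET2 KO, -1.21 for TET2 KO against WT in shMBD6 and -1.40 for the interaction. For the transcribed genes, the median log2 change was 0.32 for TET2 KO against WT in shControl, 0.0220 for shMBD6 in TET2 WT, -0.32 for shMBD6 in TET2 KO, 0.00319 for TET2 KO against WT in shMBD6 and -0.35 for the interaction, the percent called higher was 72.8 for TET2 KO against WT in shControl, 41.1 for shMBD6 in TET2 WT, 41.5 for TET2 KO against WT in shMBD6 and 18.9 for the interaction, and the percent called lower was 17.0 for TET2 KO against WT in shControl, 40.0 for shMBD6 in TET2 WT and 39.2 for TET2 KO against WT in shMBD6. For the low genes, the median log2 change was -0.87 for TET2 KO against WT in shControl, 0.98 for shMBD6 in TET2 WT, -0.69 for shMBD6 in TET2 KO, -2.49 for TET2 KO against WT in shMBD6 and -1.64 for the interaction, the percent called higher was 11.5 for TET2 KO against WT in shControl, 1.28 for shMBD6 in TET2 KO, 1.28 for TET2 KO against WT in shMBD6 and 0.321 for the interaction, and the percent called lower was 57.7 for TET2 KO against WT in shControl and 0.321 for shMBD6 in TET2 WT. For genes of 300 kb or more in RefSeq, the median log2 change was -0.96 for TET2 KO against WT in shMBD6. With only the groups compared in the model, the median log2 change was -0.46 for shMBD6 in TET2 KO and -0.98 for TET2 KO against WT in shMBD6. In the order TET2 WT shControl, TET2 WT shMBD6, TET2 KO shControl and TET2 KO shMBD6, the percent of counts in the very long genes was 9.04, 9.38, 9.79 and 8.52 of all read records, 13.2, 14.3, 14.7 and 12.8 without the 10 highest genes, 21.7, 23.2, 23.7 and 21.2 from a span of 200 kb and 5.16, 5.67, 5.87 and 5.02 from 500 kb. The background mean in CPM per kb was 0.0712, 0.0811, 0.102 and 0.0767 with taste receptor and keratin-associated genes added and 0.161, 0.200, 0.262 and 0.191 per kb of exon. Leaving out each of the 12 libraries in turn gave medians of 0.0787 to 0.11 for TET2 KO against WT in shControl, 0.70 to 0.78 for shMBD6 in TET2 WT, -0.51 to -0.50 for shMBD6 in TET2 KO, -0.92 to -0.86 for TET2 KO against WT in shMBD6, -1.27 to -1.18 for the interaction. Of 204 such values 202 stayed within 1 SD or 1.5 times of those reported, and 2 medians moved further, without WT shMBD6 replicate 1 and replicate 2. The replicate numbers did not pair the libraries, since correlations of same-numbered deviations lay between -0.00957 and 0.0201, and not every library correlated best with its own number. With the replicate number as a block the genes called higher and lower were 357 and 258 for TET2 KO against WT in shControl, 533 and 120 for shMBD6 in TET2 WT, 38 and 513 for shMBD6 in TET2 KO, 150 and 535 for TET2 KO against WT in shMBD6, 64 and 603 for the interaction, each within 1.5 times of the counts without it. Of 1630 values of named genes under alternatives 1602 kept their direction and side of the threshold, and the 28 others belong to MBD6 and TET2. TET2 in TET2 KO against WT in shControl was -0.0895 with total gene counts. TET2 with shMBD6 in TET2 WT lay between -0.0218 and 0.0269 when 1 library was left out.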
